A study of Mus musculus with 20 samples.

Results

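The Schlafen genes are a cluster of related mouse genes, of which 7 (Slfn1, Slfn2, Slfn3, Slfn4, Slfn5, Slfn8 and Slfn9) are described here. Every non-control probe that the array files name for one of these genes was taken, which gave 9 probes of 39429 in all. The probes were taken by gene name. The RNA came from whole blood of male littermates aged 8 to 10 weeks, taken 24 h after whole-body exposure to 7 Gy of X-rays or after sham exposure (0 Gy). The 4 groups of 5 arrays each were mice labelled WT (C57BL/6) at 0 Gy and at 7 Gy, and mice labelled Il10-/- (B6.129P2-Il10tm1Cgn/J) at 0 Gy and at 7 Gy. The Il10-/- strain carries a targeted germline mutation of the gene of the anti-inflammatory cytokine interleukin 10 and serves as a model of bowel inflammation. Both genotypes came from crosses of heterozygous parents, and all groups shared the globin reduction of the RNA and the 1-colour Agilent array. Levels are given on the log2 scale as the intensity of a probe minus the median of its array over all non-control probes, so they can be compared between arrays for 1 probe and not between probes.

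Schlafen genes take their name from the German word for sleep, since the first members to be described slow the growth of T cells when they are overexpressed. Many of them are induced by type I interferon, the family of antiviral cytokines that signals through the receptor chains Ifnar1 and Ifnar2, the kinases Jak1 and Tyk2, and factors such as Stat2 and Irf9. The mouse proteins fall into a short form (Slfn1, Slfn2), an intermediate form (Slfn3, Slfn4) and a long form with a helicase-like region (Slfn5, Slfn8, Slfn9). In blood, Slfn2 is known for keeping T cells and monocytes quiescent, and Slfn4 for its expression in myeloid cells.

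All members lie on chromosome 11, in the order Slfn5, Slfn9, Slfn8, Slfn2, Slfn1, Slfn4 and Slfn3, with the pseudogene Slfn10-ps between Slfn8 and Slfn2. In the mm9 coordinates of the array files, the 9 probes ran from chr11:82774907-82774966 (Slfn5, plus strand) to chr11:83028431-83028490 (Slfn3, plus strand). The RefSeq transcript named for each of the 9 probes matched the gene symbol in 9 of 9 cases. Between members the longest run of bases shared by probes was 19, between the Slfn8 probe A_55_P2117656 (chr11:82815804-82815863, minus strand) and the Slfn9 probe A_55_P2117649 (chr11:82793914-82793973, minus strand), and the next longest was 9. That pair is printed 5′ to 3′ with the shared run in capitals, as the most alike pair of probes for different members. The Slfn3 probe A_51_P228768 (chr11:83028431-83028490, plus strand) and the first 30 of the 60 bases of the Slfn4 probe A_51_P183812 (chr11:83002974-83003033, plus strand) are printed because these genes changed most.
Slfn8 probe A_55_P2117656: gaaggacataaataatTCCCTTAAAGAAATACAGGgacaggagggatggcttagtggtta
Slfn9 probe A_55_P2117649: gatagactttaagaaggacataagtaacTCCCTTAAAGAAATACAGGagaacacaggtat
Slfn3 probe A_51_P228768: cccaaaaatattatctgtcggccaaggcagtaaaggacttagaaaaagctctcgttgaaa
Slfn4 probe A_51_P183812, first 30 bases: ttctgtcttaaaggaaaacattgtatctct

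RefSeq lists promoter windows for all 7 members, 8 windows in all since Slfn8 has more than 1 listed start, each holding 250 bases before the start of transcription and 50 after it (build GRCm38.p6). They were searched on both strands for GAAA, any 2 bases and GAAA, the core of the interferon-stimulated response element, which 3.44% of 32851 mouse promoter windows hold. The core occurred in the windows of Slfn5, Slfn9 and Slfn8, the members with the long protein. It did not occur in those of Slfn1, Slfn2, Slfn3 or Slfn4, and TTC, any 3 bases and GAA, the interferon-gamma activated site that 8.30% of windows hold and that shares the letters GAA with the first pattern, occurred in none of the 7. Bases are printed 5′ to 3′ on the strand of the gene with the match in capitals, and the capitals of Slfn9 and Slfn8 read as the core on the opposite strand.
Slfn5, chr11:82951922-82951981, plus strand: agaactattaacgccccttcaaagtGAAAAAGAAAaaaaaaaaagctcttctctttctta
Slfn9, chr11:82991841-82991900, minus strand: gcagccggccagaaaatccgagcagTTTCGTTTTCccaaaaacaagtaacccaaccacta
Slfn8, chr11:83020824-83020883, minus strand: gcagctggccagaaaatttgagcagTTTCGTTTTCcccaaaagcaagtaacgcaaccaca
The printed stretches of Slfn9 and Slfn8 had the same base at 44 of 60 positions without gaps. The members whose blood RNA rose most after irradiation, Slfn4 and Slfn3, were thus among those without these letters in the window searched, which says nothing about sites elsewhere.

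Some features of the whole series touch the results on the Schlafen genes. Among the mice labelled WT at 0 Gy, replicate 5 was a weak array, with 29.9% of its spots well above background against 34.6 to 57.8% on the other 19 arrays. Its repeated spots differed with an SD of 0.89 on the log2 scale. The next weakest array was replicate 3 of the mice labelled Il10-/- at 7 Gy, with 34.6% of its spots well above background and an SD of 0.41. Replicates 1 and 2 lay close together in every group, with a robust SD of 0.16 to 0.24 over the tested probes against 0.29 to 1.02 for the other pairs, near the SD of 0.15 to 0.20 between repeated spots on those arrays. Nothing in the labels says that they share an animal, so they were kept as separate arrays, and each called Schlafen response is also given with the pair averaged and counted as 1. The probe of Il10, the targeted gene, was brighter in the mice labelled Il10-/-. There it read 2.75 ± 0.31 and 2.71 ± 0.62 (SD, n = 5) at 0 and 7 Gy, with all 5 arrays well above background. In the mice labelled WT it was well above background on 1 and 0 of 5 arrays. Whether the probe lies in the altered part of the gene was not tested, so its signal does not settle the genotype. Genotype is therefore given throughout as labelled.

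Slfn4 showed the highest difference of the 9 probes in both genotypes. In the unirradiated mice labelled WT, the 5 arrays read 2.39, 2.44, 2.20, 0.44 and 1.00 on the log2 scale, and in the irradiated mice labelled WT they read 5.03, 5.32, 6.17, 5.99 and 6.34. The groups did not overlap, and replicates 4 and 5 at 0 Gy were the lowest and not well above background. The difference was 4.08 (SE 0.47, a 16.9-fold rise) and was called (adjusted p = 0.000111, limma). Here and throughout, a probe is called when its limma p is below 0.001 and its false discovery rate over 18655 tested probes is below 10%. In the mice labelled Il10-/-, the unirradiated arrays read 3.16, 3.33, 3.04, 3.64 and 3.95 and the irradiated arrays 5.79, 6.20, 5.58, 6.98 and 6.16. Again no unirradiated array reached an irradiated one, and the rise was 2.72 (SE 0.29, 6.59-fold, adjusted p = 0.000107, limma). Slfn4 rose on 5 of 5 slides in each genotype, by 2.64 to 5.54 in the mice labelled WT and by 2.21 to 3.34 in those labelled Il10-/-.

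The call for Slfn4 held without any single array, with differences of 3.76 to 4.26 in the mice labelled WT and 2.51 to 2.86 in those labelled Il10-/-. With replicates 1 and 2 counted as 1, the differences were 4.40 (SE 0.55) and 2.71 (SE 0.36), and both were called. Background correction by normexp models the signal of each spot together with its local background, with an offset of 50 added to each intensity. It gave 2.98 in the mice labelled WT, still called, and 1.67 in those labelled Il10-/-, not called (adjusted p = 0.943, limma). Under normexp 0 of all 11440 tested probes were called in the response of the mice labelled Il10-/-. The irradiated groups differed by 0.37 (95% interval -0.37 to 1.11, adjusted p = 0.69, limma) between genotypes.

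Slfn3, the other member with the intermediate protein, rose in both genotypes as well. Its arrays read -0.07, 0.29, -0.37, -0.95 and 0.65 in the unirradiated and 2.14, 2.45, 3.15, 3.04 and 2.65 in the irradiated mice labelled WT. They read 0.26, 0.74, 0.33, 0.87 and 0.66 in the unirradiated and 2.81, 3.28, 2.55, 4.03 and 2.68 in the irradiated mice labelled Il10-/-. The irradiated arrays lay above all unirradiated ones in each genotype. The rise was 2.77 (SE 0.40, 6.84-fold, adjusted p = 0.000654, limma) in the mice labelled WT and 2.50 (SE 0.30, 5.65-fold, adjusted p = 0.000208, limma) in those labelled Il10-/-, and both were called. At 0 Gy only 2 of 5 arrays of the mice labelled WT were well above background, against 5 of 5 in those labelled Il10-/-.

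Slfn3 kept its call without any single array, with 2.56 to 2.96 in the mice labelled WT and 2.26 to 2.63 in those labelled Il10-/-. With replicates 1 and 2 counted as 1, its rises were 2.92 and 2.49, and both were called. Under normexp they shrank to 0.84 (adjusted p = 0.11, limma) and 0.59 (adjusted p = 0.943, limma), and neither was called. The part of the normexp offset in these lower values was not tested.

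**Figure D1:**
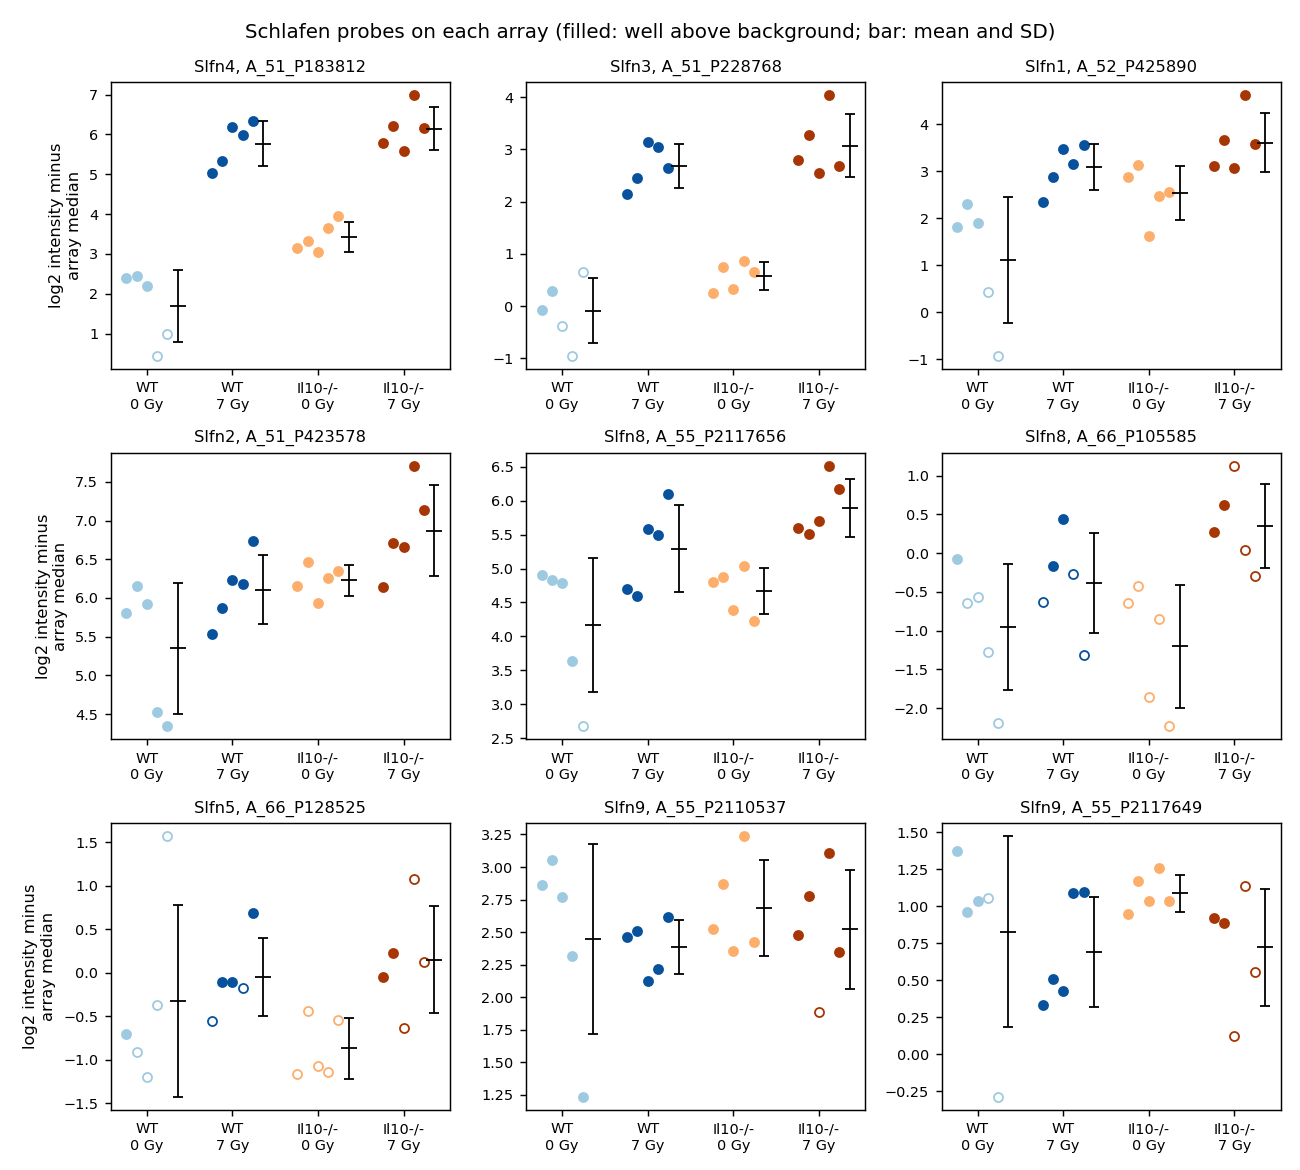
Each panel plots 1 Schlafen probe, with the log2 intensity minus the array median on the vertical axis (own range per probe), 1 point per array by group in the order of the replicate numbers, filled where the spot was well above background, and the mean and SD (n = 5) as a bar. Slfn4 and Slfn3 show no overlap between 0 and 7 Gy in either genotype, and in the unirradiated mice labelled WT the points of replicates 4 and 5 fall below the other 3 for Slfn4, Slfn1, Slfn2 and Slfn8.

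Over the family, the mice labelled WT had 2 of 8 tested member probes called, both higher (Slfn4, Slfn3), where 6.78% of all tested probes were called and 4.47% were called higher. The 5 irradiated and 5 unirradiated arrays did not overlap for 3 of 9 member probes, all of them higher, where 11.8% of all tested probes lay entirely higher. The median difference of the 8 tested probes was 0.94, against -0.02 over all tested probes. The mice labelled Il10-/- had 3 of 8 called, all higher (Slfn4, Slfn3, Slfn8), where 9.13% of all tested probes were called and 3.29% were called higher. In that genotype 4 of 9 probes did not overlap, all higher, where 6.12% of all tested probes lay entirely higher, and the median was 1.15 against -0.10 over all. All 9 probes passed the filter on background. The ninth, the Slfn9 probe A_55_P2117649, varied too little to pass the filter that asks for a 1.5-fold distance from the probe's median on 20% of arrays, and its values come from a fit without filters.

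**Figure D2:**
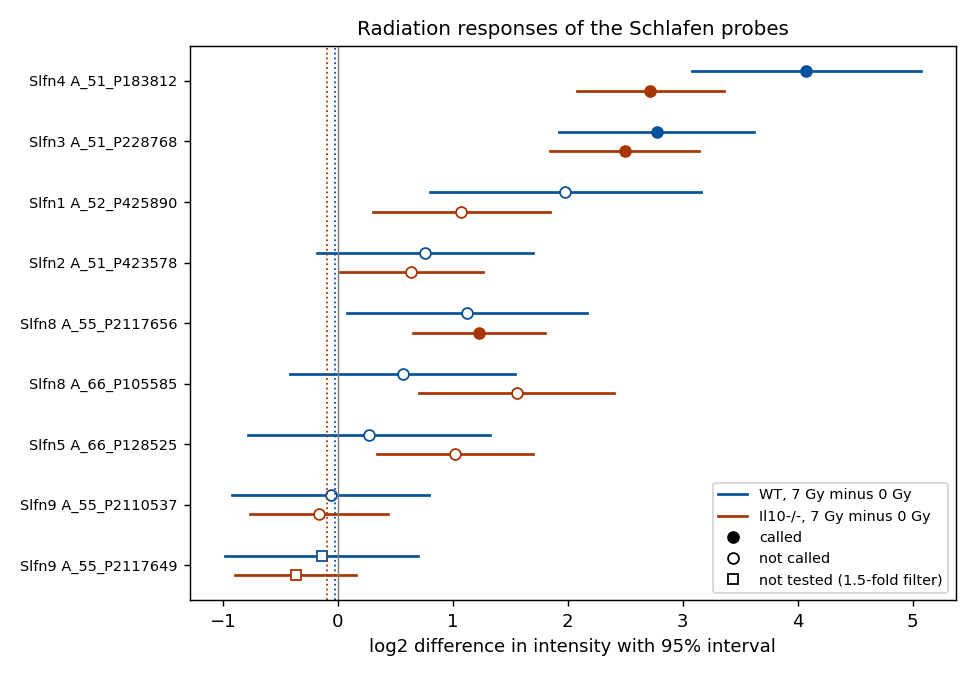
Radiation responses of the 9 Schlafen probes, with the log2 difference (7 Gy minus 0 Gy) on the horizontal axis, the 95% interval of the limma fit as a line, filled points for called probes, and squares for the probe that was not tested. Dotted lines mark the median of all tested probes, and Slfn4 and Slfn3 lie farthest from them in both genotypes.

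Among the members with the short protein, Slfn1 was higher after irradiation without passing the call. Its arrays read 1.82, 2.31, 1.89, 0.44 and -0.93 in the unirradiated and 2.34, 2.88, 3.48, 3.16 and 3.56 in the irradiated mice labelled WT. These groups did not overlap, though the highest unirradiated array lay just under the lowest irradiated one. The difference of 1.98 (SE 0.55, adjusted p = 0.0258, limma) missed the rule by its unadjusted p and became 1.47 (SE 0.41) without replicate 5 at 0 Gy and 1.81 without replicate 4. It was called when the arrays were scaled to a reference array (1.87, adjusted p = 0.00858, limma) and in a fit of all 4 groups (adjusted p = 0.00554, limma). In the mice labelled Il10-/-, Slfn1 read 2.88, 3.13, 1.62, 2.48 and 2.55 at 0 Gy and 3.12, 3.67, 3.06, 4.61 and 3.57 at 7 Gy, with overlap at the lower end of the irradiated arrays. The difference there was 1.08 (SE 0.35, adjusted p = 0.0469, limma), positive on 5 of 5 slides. It was not called, since its unadjusted p was above the threshold.

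Slfn2, the member known for keeping lymphocytes and monocytes quiescent, passed the call in neither genotype. Its arrays read 5.81, 6.15, 5.92, 4.52 and 4.34 in the unirradiated and 5.53, 5.87, 6.24, 6.18 and 6.73 in the irradiated mice labelled WT. On slides 1 and 2 the irradiated array was the lower one, on the other 3 it was higher, and the difference of 0.76 (SE 0.44, adjusted p = 0.282, limma) dropped to 0.51 without replicate 5 at 0 Gy. The mice labelled Il10-/- read 6.15, 6.46, 5.93, 6.25 and 6.35 at 0 Gy and 6.14, 6.71, 6.66, 7.71 and 7.13 at 7 Gy. All irradiated arrays but replicate 1 lay above every unirradiated one, and the difference was 0.64 (95% interval 0.02 to 1.26, adjusted p = 0.129, limma).

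The long-form member Slfn8 has a bright probe, A_55_P2117656, and a dim one, A_66_P105585 (chr11:82830985-82831044, minus strand), which is designed on another RefSeq transcript of the gene. The bright probe read 4.90, 4.84, 4.79, 3.63 and 2.68 in the unirradiated and 4.70, 4.59, 5.59, 5.50 and 6.09 in the irradiated mice labelled WT. It overlapped between doses and was lower after irradiation on slides 1 and 2, so that the difference of 1.13 (SE 0.49, adjusted p = 0.141, limma) was not called. Without replicate 5 at 0 Gy it was 0.75. The bright probe read, in the mice labelled Il10-/-, 4.80, 4.87, 4.39, 5.03 and 4.23 at 0 Gy and 5.60, 5.50, 5.69, 6.51 and 6.17 at 7 Gy. The groups did not overlap and the rise of 1.23 (SE 0.27, 2.34-fold, adjusted p = 0.00768, limma) was called, with an unadjusted p not far below the threshold.

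The call for Slfn8 did not hold when single arrays were left out, though the difference changed little. It was lost without replicate 1, 2, 3 or 5 at 0 Gy and without replicate 4 or 5 at 7 Gy, with differences of 1.08 to 1.28 in those fits. It was also lost with the replicate number as a block (adjusted p = 0.0179, limma) and with replicates 1 and 2 counted as 1 (difference 1.36, adjusted p = 0.0283, limma), where its unadjusted p missed the threshold. A fit of all 4 groups (adjusted p = 0.0493, limma) and the liver and heart covariates described further on (difference 1.76, adjusted p = 0.0416, limma) ended the call in the same way, and normexp moved the value to 0.65, not called. The dim probe was well above background on 0 of 5 arrays of the unirradiated mice labelled Il10-/- and on 2 of 5 of the irradiated ones. Its measured difference was 1.56 (95% interval 0.71 to 2.41, adjusted p = 0.0156, limma), and it was not called. The means differed 2.81-fold when each unirradiated array was set to the higher of its own value and the lowest signal well above background on it. That is an estimate and not a lower limit. The highest irradiated array, replicate 3 (1.13), was not well above background. The dim probe read, for the mice labelled WT, -0.95 ± 0.81 at 0 Gy and -0.39 ± 0.65 at 7 Gy (SD, n = 5), well above background on 1 and 2 of 5 arrays.

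The other long-form members passed the call in neither genotype with the processing used here. Slfn5 (probe A_66_P128525) was dim, well above background on 1, 3, 0 and 2 of 5 arrays of the unirradiated and irradiated mice labelled WT and the unirradiated and irradiated mice labelled Il10-/-. Its difference in the mice labelled Il10-/- was 1.02 (95% interval 0.34 to 1.70, adjusted p = 0.0357, limma), not called. It was called under 2 of 4 other scalings, the reference array (1.17) and the authors' table (1.30), and was 0.56 under quantile normalization. The 2 that called it are nearly the same scaling, with constants per array that differed by -0.053 to 0.020. The response of Slfn5 was 0.28 (95% interval -0.78 to 1.33) in the mice labelled WT. It became 0.75 without replicate 5 at 0 Gy, which read 1.57 and was not well above background. Slfn9 differed little between groups, and its probe A_55_P2110537 (chr11:82793812-82793871, minus strand) had means of 2.45 ± 0.73, 2.39 ± 0.21, 2.68 ± 0.37 and 2.52 ± 0.46 (SD, n = 5) in the same order of groups. The responses were -0.06 (95% interval -0.92 to 0.80) in the mice labelled WT and -0.16 (-0.76 to 0.44) in those labelled Il10-/-, so that a rise of the size seen for Slfn4 or Slfn3 lies outside both intervals. The second Slfn9 probe, which shares the run of 19 bases with the bright Slfn8 probe, had responses of -0.14 (-0.98 to 0.70) and -0.36 (-0.89 to 0.16).

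**Figure D3:**
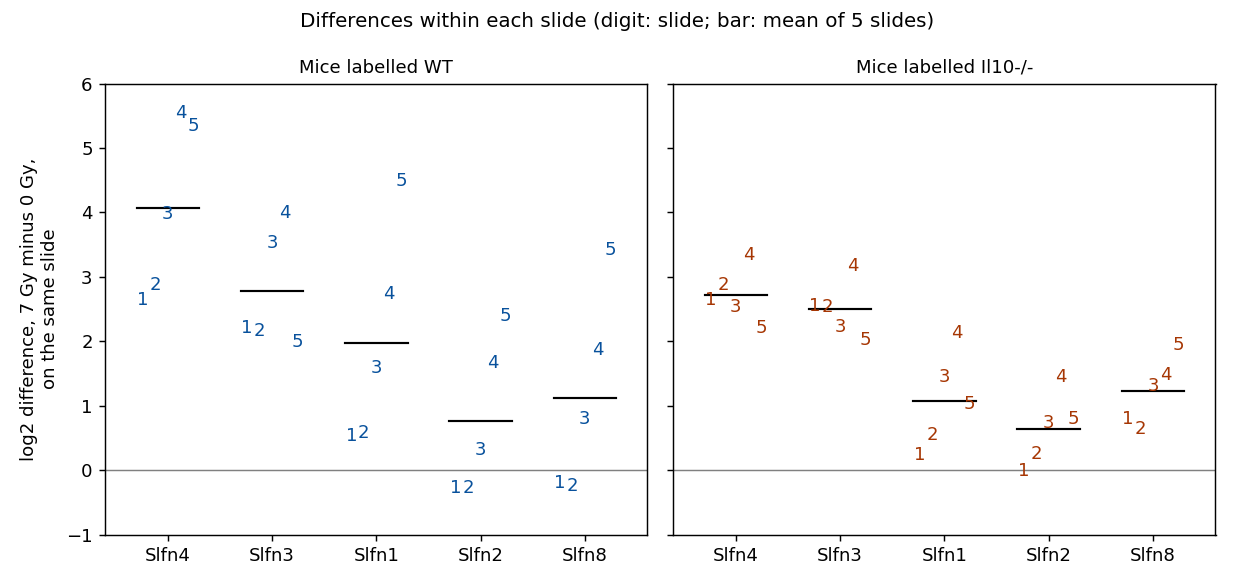
Differences between the irradiated and the unirradiated array on the same slide (vertical axis, log2), for 5 Schlafen genes, with the digit naming the slide and the bar the mean of 5 slides. Slfn4, Slfn3 and Slfn1 lie above 0 on every slide in both genotypes, and slides 1 and 2 give the low values of Slfn2 and Slfn8 (the bright probe) in the mice labelled WT.

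Before irradiation, Slfn4 was the member that differed most between genotypes. The 5 unirradiated arrays labelled Il10-/- (3.04 to 3.95) all lay above the 5 labelled WT (0.44 to 2.44), where 3.98% of all tested probes lay entirely higher. The difference of 1.73 (SE 0.44, adjusted p = 0.106, limma) missed the false discovery rate and was not called. It was 1.42 without replicate 4 and 1.56 without replicate 5 of the WT 0 Gy group. With the replicate number as a block it was called (adjusted p = 0.0407, limma). No member probe was called, by the rule that called 0.852% of all tested probes, and 3 had an unadjusted p under 0.05 (Slfn4, Slfn1, Slfn2), as had 2999 of the 18655 tested probes. The median of the tested member probes was 0.58, against 0.36 over all tested probes. That baseline moved with the scaling, to between -0.07 and 0.11 under the other 4 scalings, where Slfn4 differed by 1.38 to 1.52, Slfn1 by 0.87 to 1.39 and Slfn2 by 0.38 to 0.60, none called. Slfn1 was 1.43 higher (SE 0.54, adjusted p = 0.245, limma) and 0.92 without replicate 5, and Slfn2 was 0.88 higher (SE 0.42, adjusted p = 0.311, limma) and 0.63 without it.

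Markers of neutrophils, which are myeloid cells, moved with this comparison. Of 10 tested, 5 were called higher in the unirradiated mice labelled Il10-/-, among them Retnlg by 2.88 (SE 0.53) and S100a8 by 2.35 (SE 0.49), with a median of 1.87 against 0.36 over all tested probes. The mean of the list ran from 7.19 to 8.46 there and from 5.02 to 6.63 in the unirradiated mice labelled WT, without overlap. None of 9 monocyte genes was called higher. Of 15 liver genes, 2 (Alb, Hpx) were called higher, with a median of 3.93 over the liver list. The mean of the liver list ran from 2.13 to 9.21 in the unirradiated mice labelled Il10-/- and from 0.37 to 1.79 in those labelled WT, also without overlap. The part of these shifts in the Slfn4 difference was not tested.

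After irradiation, no member probe differed between genotypes by the rule, which called 0.0107% of all tested probes, and 1 had an unadjusted p under 0.05 (Slfn2, 0.76 higher in the mice labelled Il10-/-, adjusted p = 0.436, limma), as had 2064 of the 18655 tested probes. All 9 differences were above 0, from 0.03 to 0.76. The order of Slfn4 levels was thus unirradiated WT, unirradiated Il10-/-, irradiated WT and irradiated Il10-/-. The first pair of neighbours did not overlap but was not called, and the last pair did not differ beyond its spread. The middle pair, which differs in both genotype and dose, was not tested. For Slfn3 the order was the same, and neither the unirradiated groups (difference 0.66, 95% interval -0.15 to 1.47) nor the irradiated groups (0.38, -0.33 to 1.10) differed beyond their spread.

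The interaction between genotype and dose, fitted over the 20 arrays together, called no member and 0.0% of all tested probes. An unadjusted p under 0.05 (limma) was found for 1334 of these probes and for 1 member probe (Slfn4). The rise of Slfn4 was the smaller one in the mice labelled Il10-/- (interaction -1.36 on the log2 scale, 95% interval -2.52 to -0.20, adjusted p = 0.681, limma). It was -1.04 without replicate 4 of the WT 0 Gy group. The interaction of Slfn3 was -0.28 (-1.28 to 0.72), that of Slfn1 was -0.90 (-2.34 to 0.53) and that of the bright Slfn8 probe was 0.10 (-1.08 to 1.29). These intervals include both no difference and differences larger than 1 on the log2 scale.

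The array also holds probes of other Schlafen genes. Slfn10-ps, the pseudogene next to Slfn8, had responses of 0.77 (SE 0.42, adjusted p = 0.238, limma) in the mice labelled WT and 0.92 (SE 0.28, adjusted p = 0.0331, limma) in those labelled Il10-/-, and Slfn14 had -0.43 (SE 0.41) and -0.48 (SE 0.35). Neither was called. The probe of Slfnl1, a relative on chromosome 4, was above background on 0 of 20 arrays.

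The arrays also hold the genes of the interferon pathway, ordered by their role. None of 6 tested interferon ligands was called in either response, and Ifnb1 did not pass the filter on background. None of 5 tested receptors and kinases was called, and Ifnar1, a chain of the type I interferon receptor, differed by -0.30 (SE 0.43) and -0.94 (SE 0.25, adjusted p = 0.0207, limma) after irradiation in the mice labelled WT and Il10-/-. Among 6 tested transcription factors, Irf7, which drives interferon genes and is itself induced by interferon, had differences of 1.88 (SE 0.53, adjusted p = 0.0273, limma), not called, in the mice labelled WT and 1.56 (SE 0.31, adjusted p = 0.00477, limma), called, in those labelled Il10-/-. Irf8, a factor of B cells and monocytes, fell in both (-1.78 and -2.02, called). Stat2 read 1.28 (SE 0.43) and 0.94 (SE 0.26) higher, not called, and Irf9 varied too little to be tested. Of 5 feedback inhibitors, Usp18, which removes the ubiquitin-like protein Isg15 and damps the receptor, was the one called, with rises of 2.47 (SE 0.38) and 2.44 (SE 0.27).

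Of the 16 interferon-stimulated effector genes, all tested, 13 rose and 0 fell in the mice labelled WT, and 12 rose and 0 fell in those labelled Il10-/-, with medians of 1.99 and 1.81. Ifit3, which binds viral RNA together with Ifit1, rose by 4.62 (SE 0.47) and 4.72 (SE 0.38). Bst2, which tethers budding virus, rose by 4.07 (SE 0.48) and 2.54 (SE 0.28), and Oas1a, a sensor of double-stranded RNA, by 3.76 (SE 0.48) and 2.85 (SE 0.29). The Slfn4 and Slfn3 rises lay within the range of these effectors, above their median in both genotypes. Isg15 differed by -0.33 (SE 0.42) and -0.76 (SE 0.34), and Rsad2 by -1.30 (SE 0.74) and -1.66 (SE 0.41), all not called. These values come from the brightest probe of each gene that passed the filter on background, and any other probes of these genes are not reported.

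Over the 20 arrays, the genes outside the family whose probes followed Slfn4 most closely were Rtp4 (Pearson r = 0.984), Oas2 (0.979) and Oas1a (0.971). After the group means were removed, the same correlations were 0.864, 0.891 and 0.813. Those closest to Slfn3 were I830012O16Rik (0.951), Ifit3 (0.943) and Oasl1 (0.938), which became 0.485, 0.361 and 0.476 without the group means. Trim30a was closest to the bright Slfn8 probe (0.965), Zdhhc7 to Slfn2 (0.962), and Ric8 (0.975) and Tapbp (0.973) were among the 3 closest to Slfn1. Slfn5 and Slfn9 had Rhob (0.868) and Heatr3 (0.946) as their closest. Within the family, Slfn1, Slfn2 and the bright Slfn8 probe followed each other after the group means were removed (r = 0.88 to 0.91). Slfn4 had values of 0.80, 0.90 and 0.77 with them and 0.59 with Slfn3, while Slfn3 had values of 0.16 to 0.37 with them. All these values share the arrays, their scaling and the weak replicate 5, and are descriptions over 20 arrays without a test.

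The makeup of the blood moved with dose, and fewer cells of a type cannot be told apart here from less RNA per cell. Of 9 tested B cell markers, 8 fell in each genotype, with differences of -2.91 and -3.68 for Ms4a1, and the mean of the list ran from 5.09 to 6.47 and 5.02 to 6.12 at 0 Gy and from 2.50 to 3.30 and 2.24 to 2.55 at 7 Gy in the mice labelled WT and Il10-/-. Of 12 tested T cell markers, 3 and 4 fell, among them Tcf7 (-2.68 and -2.42), and Cd3e differed by -0.47 and -0.28, not called. Of 14 tested genes of lymphocyte quiescence, 1 and 4 fell, among them Ccr7 (-3.71 and -3.42) and, in the mice labelled Il10-/-, Foxo1 (-1.68), which differed by -1.19 in those labelled WT, not called. The myeloid lists were mixed. Of 9 tested monocyte markers, 2 rose and 1 fell in the mice labelled WT (Adgre1 2.77, Cx3cr1 -2.29) and 1 rose and 2 fell in those labelled Il10-/- (Adgre1 1.66, Cx3cr1 -3.14). Of 10 tested markers of mature neutrophils 1 rose (Padi4, by 2.83) and 0 fell in the mice labelled WT, and none was called in those labelled Il10-/-. The mean of the neutrophil list ran from 5.02 to 6.63 and 7.19 to 8.46 at 0 Gy and from 6.10 to 6.62 and 6.68 to 8.86 at 7 Gy in the same order of genotypes. None of 7 NK cell markers was called. None of 7 platelet markers was called either, but their medians were 1.28 and 1.22, and the mean of the list ran from 7.28 to 8.82 and 7.69 to 10.54 at 0 Gy and from 9.13 to 10.26 and 10.23 to 11.16 at 7 Gy, without overlap between doses in the mice labelled WT. In the same order of genotypes, 4 and 5 of 7 erythroid markers fell. The part of these shifts in the Schlafen differences was not tested.

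RNA of liver and heart muscle genes was present on some arrays, from blood that was drawn by cardiac puncture, and it moved with dose. In the mice labelled WT, 10 of 15 tested liver genes were called higher after irradiation, Alb by 9.03 (SE 1.52), and the mean of the list ran from 0.37 to 1.79 at 0 Gy and from 2.69 to 10.84 at 7 Gy, without overlap. In the mice labelled Il10-/- none of the 15 liver genes was called (2.13 to 9.21 and 1.36 to 9.11), and 5 of 7 heart muscle genes were called higher, Myh6 by 7.08 (SE 1.48). With the liver and heart list means as covariates, the Slfn4 difference was 3.16 (SE 1.24, adjusted p = 0.932, limma) in the mice labelled WT and 2.46 (SE 0.51, adjusted p = 0.0179, limma, called) in those labelled Il10-/-. Slfn3 gave 2.90 (SE 1.18, adjusted p = 0.932, limma) and 2.17 (SE 0.50, adjusted p = 0.0278, limma, called). The liver list separates the doses completely in the mice labelled WT, so that the part of dose and of liver RNA cannot be told apart there.

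**Figure D4:**
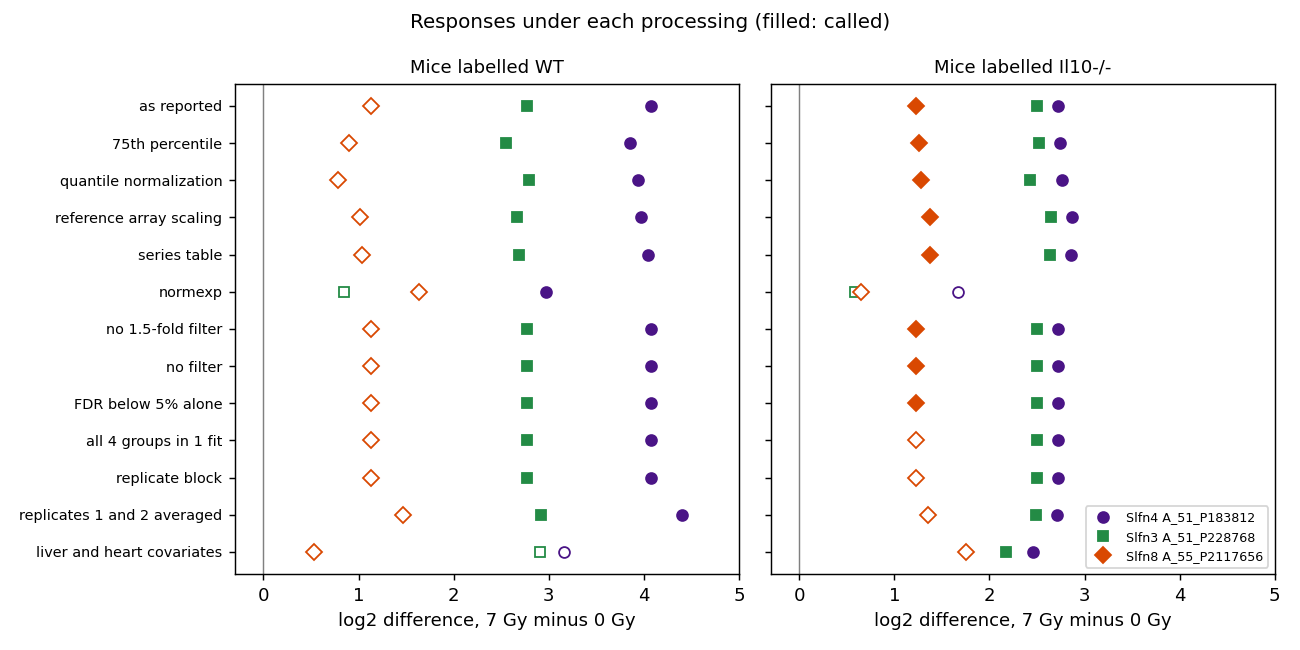
Log2 differences (7 Gy minus 0 Gy, horizontal axis) of Slfn4, Slfn3 and the bright Slfn8 probe under each processing, filled where the probe was called. Slfn4 lies to the right of Slfn3 in all rows of both panels, and normexp gives the lowest value of Slfn4 and Slfn3 in both.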

How the data were processed

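The authors deposited the Agilent Feature Extraction output of 20 arrays, and the column used is the background-subtracted, detrended intensity of each spot, not normalized between arrays. The study's methods and the submitters' processing notes name version 10.7 of that software, the file headers 12.0.2.2. The authors also deposited a table of log2 values, scaled per array, which was used as an alternative. Its constants per array were within -0.053 to 0.020 of those of the reference array scaling, another alternative. Intensities were converted to log2, non-uniform spots were left out, repeated spots were averaged per probe, and each array's median over 39429 non-control probes was subtracted. Following the study's methods, a probe was dropped if marked as an outlier or not above background on 25% of arrays or more, or if fewer than 20% of arrays lay 1.5-fold from its median, which left 18655. Each pair of groups was fitted on its 10 arrays in limma 3.58.1 (R 4.3.3), the interaction on all 20, and a call needed p below 0.001 and a false discovery rate (Benjamini-Hochberg) below 10%. Tables and figures used Python 3.11.15 with pandas 2.3.3, numpy 2.4.6, scipy 1.17.1 and matplotlib 3.10.9. The members, gene lists and tests were chosen with earlier results of these data known. Each gene of the lists was represented by its brightest probe that passed the filter on background. Named are all member probes, Il10, the other Schlafen genes, the 3 genes closest to each member by Pearson r, and from each list the defining genes and up to 3 with the largest called differences. Some were named for their values after these were seen, and some genes of the lists are not reported here. Replicate numbers mark slides, each with 1 array of every group and 1 scan. Deviations of same-slide arrays from their group means correlated by -0.66 to 0.68, and no 2 groups had all 5 slides above 0.1. The 2 WT groups (mean 0.22) and the 2 irradiated groups (mean 0.41) had 4 of 5 slides above 0.1. Every other pair of groups had 2 of 5. P-values measure the spread between these arrays. The number of arrays and the signal over background limit the precision. On simulated data, of 100 probes changed by 2 on the log2 scale among 18611, 69 were called in the response of mice labelled WT, 57 in that of mice labelled Il10-/- and 16 in the interaction. Of 100 changed by 1, 3, 3 and 0 were called. The simulated noise was normal and independent between arrays, with the SD of each probe within groups, and no other probe was changed. It held no weak array and no close replicates 1 and 2, so these rates are for that setting and not for the real comparisons. Alternatives were other scalings, filters, background corrections and designs, and leaving out each array.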

Additional observations from a re-analysis of the deposited data

Results flagged for a closer look

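The Slfn9 probe A_55_P2117649 read -0.29 in replicate 5 of the unirradiated mice labelled WT, far below the nearest of the other 4 arrays at 0.96, a gap of 0.753 of the group's range. This is the weak array, and the probe is the one that varied too little to be tested. Of 36 groups examined (9 probes in 4 groups), chance alone would mark about 1 in 20.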

How the results depend on the processing

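The radiation responses of Slfn4 and Slfn3 kept their direction under every alternative and every omitted array. In the mice labelled WT the number of Schlafen probes called (2) became 1 with normexp, 0 with the liver and heart list means as covariates, and 3 (Slfn1 gained) with the reference array, at a false discovery rate below 5% alone and with all 4 groups in 1 fit. In those labelled Il10-/- it (3) became 0 with normexp, 4 (Slfn5 gained) with the reference array and the authors' table, 6 at a false discovery rate below 5% alone, and 2 (Slfn8 lost) with all 4 groups in 1 fit, with replicates 1 and 2 averaged and with covariates. Before irradiation it (0) became 1 with all 4 groups in 1 fit and ranged from 0 to 1 when single arrays were left out (1 without replicate 1 or 2 of the unirradiated mice labelled WT). Other scalings moved the median response of all tested probes from -0.02 to between -0.29 and -0.08 in the mice labelled WT and from -0.10 to between -0.17 and 0.19 in those labelled Il10-/-, and normexp moved it to 0.65 and -0.32. Normexp left 11440 probes, 5 of them Schlafen probes, and calls over all tested probes became 261 and 0, from 1265 and 1703. Those calls were 2721 and 4054 at a false discovery rate below 5% alone, 747 and 813 with replicates 1 and 2 averaged, 6 and 580 with covariates, 2119 (WT) with all 4 groups in 1 fit, and 1131 (Il10-/-) without replicate 1 of the Il10-/- 0 Gy group. Before irradiation they (159) were 26 to 78 under other scalings, 66 without filters, 75 at a rate below 5% alone, 255 with covariates, 376 with the block, 0 with normexp and 48 to 176 over single omissions (48 without replicate 4 of the WT 0 Gy group). After irradiation they (2) were 223 with covariates and 0 to 4 otherwise, and in the interaction (0) they were 7 with covariates. The cause of these shifts was not tested.

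With the replicate number as a block, 2 Schlafen probes were called in the mice labelled WT, 2 in those labelled Il10-/- (Slfn8 was lost) and 1 before irradiation (Slfn4 was gained), and the block changed no other call.

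Values that changed sign all belonged to differences that were not called. In the response of mice labelled WT these were Slfn2 with covariates (-0.16) and Slfn9 with replicates 1 and 2 averaged (0.042) and over single omissions (-0.36 to 0.091). Before irradiation they were the dim Slfn8 probe with quantile normalization (0.0070) and over omissions (-0.56 to 0.0084), and Slfn9 over omissions (-0.068 to 0.39). After irradiation, normexp turned the genotype differences of Slfn1 (-0.18), Slfn2 (-0.092), Slfn3 (-0.19), Slfn4 (-0.44) and the bright Slfn8 probe (-0.23). Quantile normalization turned that of Slfn5 (-0.19; omissions -0.029 to 0.40), and Slfn9 ran from -0.014 to 0.29 over omissions. The interaction of Slfn2 became 0.14 with the 75th percentile, 0.35 with quantile normalization, 0.14 with the reference array, 0.11 with the authors' table and 0.064 with covariates (omissions -0.33 to 0.13). That of the bright Slfn8 probe became -0.98 with normexp and -0.11 with replicates 1 and 2 averaged (omissions -0.079 to 0.48), and that of Slfn9 became 0.29 with covariates (omissions -0.25 to 0.20).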
